A study of Mus musculus with 6 samples.

Results

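The 31 genes described here are interferon-stimulated genes, members of the transcriptional program that cells switch on when interferon binds its receptors. The members were taken as a fixed list of gene symbols, and all 31 symbols were present among the 45038 rows of the deposited expression table, on 32 rows because Gbp6 appears on a pair of rows. Of the 31 members, 28 passed the filter on low values (at least 1 FPKM, a fragment count divided by transcript length and by library size, in at least 3 of the 6 libraries), as did 10168 rows of the whole table. The other 3, Oas3, Mx2 and Gbp5, reached 1 FPKM in too few libraries and were not tested in the main comparison. Oasl1 passed the filter through its MI libraries alone.

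RNA was sequenced from cells sorted as tdTomato+ and F4/80- from hearts of C57BL/6 mice carrying Tie2-Cre;Rosa-LSL-tdTomato. In these mice Cre under the Tie2 promoter turns on the red reporter in endothelial cells and also in part of the blood lineage, and the F4/80 antibody was used to leave out macrophages. The MI group (libraries Ms1535, Ms1537 and Ms1608) came from infarcted tissue dissected 3 weeks after ligation of the left anterior descending coronary artery in mice 6 to 8 weeks old at surgery. The Normal group (libraries with the same 3 numbers) was labelled as normal LV tissue without that surgery, in the same strain and reporter genotype. The series compares these sorted cells between the infarct and the normal heart, and here the interferon response is followed through that comparison. The labels do not say whether libraries with the same number share a mouse, nor how many mice went into each, so a p-value here measures only the spread between these libraries.

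Interferon is a secreted ligand. Viral or displaced cellular nucleic acid is detected by receptors such as RIG-I and MDA5, the detecting cell releases type I interferon, and binding of that ligand to its receptor activates the kinases JAK1 and TYK2, which phosphorylate transcription factors of the STAT family. STAT2 and IRF9 take part in a complex that binds the interferon-stimulated response element (ISRE), while type II interferon, made by T and NK cells, acts at the gamma-activated sequence (GAS). After infarction, DNA and RNA from dying cells are known to feed this pathway, and leukocytes and endothelial cells are both able to respond.

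To show what the members share in sequence, promoters were read from RefSeq (GRCm38.p6, from 250 bases before to 50 bases after each annotated start). A promoter was found for 23 of the 31 members. Gbp3, Irf1, Irf9 and Ifit2 had more windows than the rest, and a member was counted if any of its windows matched. The shares over all windows count each window separately, so the units differ. The ISRE core, searched as GAAANNGAAA on both strands, was present in 14 of the 23 (60.9%), against 3.44% of all 32851 promoter windows of the same length. The shorter GAS-like motif, searched as TTCNNNGAA, was present in 6 of the 23 (26.1%), against 8.3% of all windows. The 8 stretches below lie upstream of the start and are printed 5' to 3' on the gene's strand, with matches in capitals; matches that overlap run together. Ifit1 (chr19:34640744-34640870, plus strand), Ifit3 (chr19:34583359-34583528, plus), Isg15 (chr4:156200819-156200988, minus) and Rsad2 (chr12:26456453-26456622, minus) are shown because these genes were far lower in a single Normal library. Gbp3 (chr3:142559874-142560025, plus) and Igtp (chr11:58199386-58199555, plus) carry the same core and were not. Oas3 (chr5:120777662-120777795, minus, ISRE core) and Irf1 (chr11:53769844-53770013, plus, GAS-like motif alone) are shown because their MI and Normal libraries did not overlap.
Ifit1: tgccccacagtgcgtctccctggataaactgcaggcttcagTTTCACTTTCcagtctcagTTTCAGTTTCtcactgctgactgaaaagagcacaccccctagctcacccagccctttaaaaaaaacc
Ifit3: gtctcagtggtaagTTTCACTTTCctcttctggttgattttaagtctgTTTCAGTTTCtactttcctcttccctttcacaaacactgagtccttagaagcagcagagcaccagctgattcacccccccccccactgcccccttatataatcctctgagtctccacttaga
Isg15: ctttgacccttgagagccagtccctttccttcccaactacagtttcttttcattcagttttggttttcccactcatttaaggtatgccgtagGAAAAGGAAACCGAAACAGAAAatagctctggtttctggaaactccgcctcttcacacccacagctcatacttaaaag
Rsad2: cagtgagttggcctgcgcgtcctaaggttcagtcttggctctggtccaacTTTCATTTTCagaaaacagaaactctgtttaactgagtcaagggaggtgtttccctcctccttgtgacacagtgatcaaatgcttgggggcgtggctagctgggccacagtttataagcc
Gbp3: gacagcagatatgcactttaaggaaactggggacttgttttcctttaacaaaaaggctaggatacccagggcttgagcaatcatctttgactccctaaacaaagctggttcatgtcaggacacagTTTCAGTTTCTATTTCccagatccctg
Igtp: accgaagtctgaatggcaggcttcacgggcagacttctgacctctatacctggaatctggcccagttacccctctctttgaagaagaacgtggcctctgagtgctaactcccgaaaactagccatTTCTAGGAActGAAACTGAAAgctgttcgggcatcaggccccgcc
Oas3: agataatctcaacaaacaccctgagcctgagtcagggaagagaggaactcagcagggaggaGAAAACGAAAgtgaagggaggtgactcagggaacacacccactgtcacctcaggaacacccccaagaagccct
Irf1: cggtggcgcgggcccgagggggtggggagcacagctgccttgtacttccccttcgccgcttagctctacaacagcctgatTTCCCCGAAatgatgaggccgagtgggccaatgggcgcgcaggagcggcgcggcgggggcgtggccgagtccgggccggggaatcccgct
The Isg15 stretch holds 3 overlapping core matches, Ifit1 and Ifit3 hold 2 separate ones each, and Igtp holds a GAS-like match beside its core. Ddx58, the member with the largest difference between the groups, has a single core match, TTTCGATTTC, just after the start, at positions 3 to 12 counted from the annotated start (chr4:40239814-40239823, minus strand). A match is a description of the letters and does not show that a factor binds there.

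The libraries differed widely in ways that the groups do not account for. Normal Ms1608 stood apart, with correlations of 0.54 to 0.68 with the other libraries over tested genes (log2(FPKM + 1)), against 0.80 to 0.92 among the rest. Whether its label is right was not tested, so every Normal mean and difference that includes it rests on the label. Over 14 pan-endothelial markers the summed level was 290 to 1157 FPKM in MI, 948 and 1344 FPKM in the Normal libraries numbered Ms1537 and Ms1535, and 38.5 FPKM in Normal Ms1608, and 13 of the 14 were under 10% of the lower of the other Normal libraries there. The exception, Pecam1, was highest in Normal Ms1608, at 28.35 FPKM, against 7.2 to 23.7 FPKM elsewhere. Egfl7 alone held 207 to 716 FPKM of the sums in MI, and 669 and 909 FPKM in Normal Ms1537 and Ms1535. Over 10 pan-leukocyte markers the sum was 2078 to 2431 FPKM in MI, 411 and 282 FPKM in those same Normal libraries, and 3954 FPKM in Normal Ms1608. Cd52 alone held 1258 to 1787 FPKM of these sums in MI, 323 and 217 FPKM in Normal Ms1537 and Ms1535, and 2827 FPKM in Normal Ms1608. The median of the list on log2(FPKM + 1) was 5.83 to 6.16 in MI, 3.18 and 2.64 in Normal Ms1537 and Ms1535, and 6.80 in Normal Ms1608. No marker of either list was at 0 in any library. Fibroblast markers (8 genes) summed to 926 to 5122 FPKM in MI and 150 to 902 FPKM in Normal, of which Dcn alone held 702 to 3035 FPKM and 104 to 707 FPKM. Adgre1, which encodes F4/80 itself, was at 0.00904 to 7.22 FPKM, highest in MI Ms1608. The step size of the low FPKM values implied 31.5 to 44.9 M fragments per library, above the roughly 10 M reads that the labels' protocol names. The main results are also given without Normal Ms1608.

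Across the whole list the infarct libraries did not stand clearly above the uninjured ones. No member passed an adjusted p of 0.05 (limma, Benjamini-Hochberg over all tested genes), where 0.00983% of all tested genes (1 gene) did. At an unadjusted p under 0.05, 2 members, Ddx58 and Oasl1, were higher in MI, or 7.14% of the 28, against 16.1% of all tested genes, and 0 were lower, against 0.207%. Oasl1, at 1 FPKM or more in the MI libraries alone, had to be higher there to be tested, and without it the count was 1. With median-ratio scaling 1 member was higher (Ddx58), against 3.65% of all tested genes, and 1 lower (Ifi35), against 1.03%. With upper-quartile scaling the same counts stood against 4.59% and 1.26%. The fitted log2 difference (MI minus Normal, on log2(FPKM + 1), which understates the change of low genes) had a median of 0.34 over the 28 members and ran from -0.51 to 2.35, while over all tested genes the median was 0.78. It was positive for 21 of 28 members (75.0%), against 87.2% of all tested genes. These are bulk libraries, in which fewer cells of a type and less RNA per cell cannot be told apart.

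Without Normal Ms1608 the list divided. A single member, Ddx58, passed the adjusted threshold of 0.05 (3.57% of 28, limma), against 4.51% of all tested genes. At an unadjusted p under 0.05 Ddx58 was higher (30.8% of all genes were) and Isg15 was lower (0.738% of all genes were). The median log2 difference of the members was -0.07, from -1.25 to 2.16, against 0.83 over all genes, and 13 of 28 (46.4%) were positive, against 87.7%. In both fits the median of the members lay below that of all genes. Without a filter on low values the order turned, with a median of 0.53 over all 31 members against 0.04 over 30727 genes, and without Normal Ms1537 the medians were 0.75 and 0.73.

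**Figure D1:**
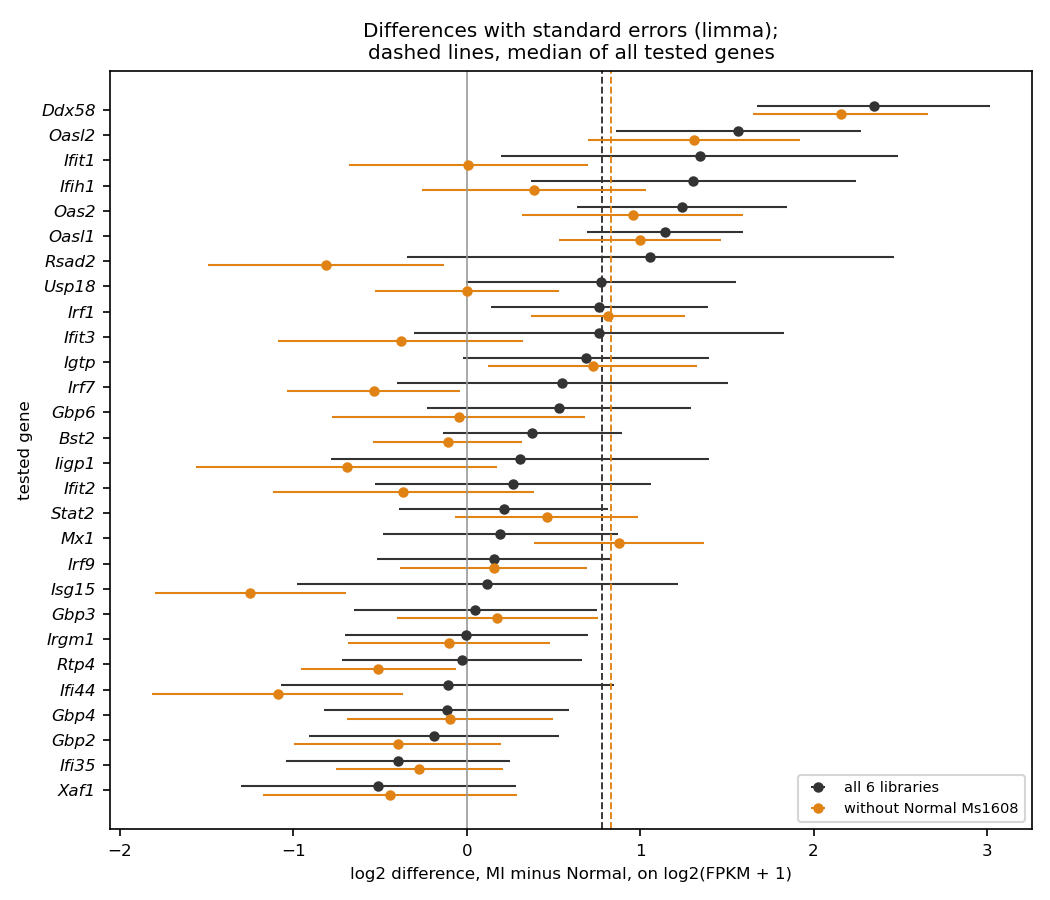
Log2 difference between MI and Normal (log2(FPKM + 1), x axis) for each tested member, fitted with all 6 libraries and without Normal Ms1608, with bars of 1 standard error and dashed lines at the medians of all tested genes (0.78 and 0.83). Ddx58 lies farthest to the right in both fits (2.35 and 2.16), while Isg15 moves from 0.12 to -1.25 when that library is left out.

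Ddx58, which encodes RIG-I, the cytosolic sensor of viral RNA with a 5' triphosphate, gave the clearest difference. It lies on chromosome 4 from 40203773 to 40239828 (minus strand, GRCm38) and shares none of its transcript windows with another gene. Its level was 34.2, 36.5 and 16.9 FPKM in the infarct libraries (always given in the order Ms1535, Ms1537, Ms1608) and 5.31, 5.57 and 3.33 FPKM in those of uninjured heart. All 3 MI libraries were above all 3 Normal libraries, with MI Ms1608 the lowest of its group. The means were 29.2 ± 10.7 FPKM (SD, n = 3) in MI and 4.74 ± 1.23 FPKM (SD, n = 3) in Normal. The log2 difference was 2.35 (SE 0.67, limma adjusted p = 0.245) with all libraries and 2.16 (SE 0.50, limma adjusted p = 0.0493) without Normal Ms1608. It stayed positive under all 16 other settings, from 1.41 to 2.69, with limma adjusted p from 0.029 to 0.922. Ptprc, which encodes the leukocyte surface protein CD45, was at 68.7, 77.9 and 75.9 FPKM in the infarct libraries and 3.13, 4.72 and 173.8 FPKM in those of uninjured heart. Normal Ms1608 therefore had the highest Ptprc and the lowest Ddx58 of the 6 libraries, while between the other Normal and the MI libraries both were higher in MI. The part of cell make-up in the Ddx58 difference was not tested.

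Ifih1 encodes MDA5, the other RNA sensor of the list, which recognises long double-stranded RNA. Its level was 12.0, 17.4 and 3.51 FPKM in the infarct libraries and 6.76, 6.92 and 0.159 FPKM in those of uninjured heart. The groups overlapped, since MI Ms1608 was below both Normal Ms1535 and Normal Ms1537. The log2 difference was 1.31 (SE 0.94, limma adjusted p = 0.475) and was 0.39 without Normal Ms1608. Whether both sensors differ from each other in this contrast was not tested.

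Among the transcription factors, Irf1, a factor strongly induced by type II interferon, separated the groups. Its level was 27.7, 26.2 and 31.6 FPKM in the infarct libraries and 19.7, 12.5 and 17.6 FPKM in those of uninjured heart. Every MI library was above every Normal library, and MI Ms1608 was the highest, unlike most members. The means were 28.5 ± 2.81 and 16.6 ± 3.68 FPKM (SD, n = 3 each), and the log2 difference was 0.76 (SE 0.63, limma adjusted p = 0.530), or 0.81 (SE 0.45, adjusted p = 0.230) without Normal Ms1608. That difference was close to the 0.78 median of all tested genes, and with median-ratio scaling, which brings that median to 0.02, it was -0.23.

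Irf7, the factor that amplifies type I interferon production, was at 16.7, 37.4 and 17.3 FPKM in the infarct libraries and 31.6, 33.6 and 2.49 FPKM in those of uninjured heart. MI Ms1535 and Ms1608 were below both of the other Normal libraries, and Normal Ms1608 was the lowest. Its log2 difference was 0.55 with all libraries and -0.54 without Normal Ms1608 (limma adjusted p = 0.792 and 0.445). Irf9 and Stat2, the remaining parts of the ISRE-binding complex on the list, had differences of 0.16 and 0.21 and ranged over 6.68 to 16.4 FPKM and 0.930 to 4.82 FPKM. For neither did the groups separate.

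The OAS family comprises enzymes that sense double-stranded RNA and signal to RNase L, together with related OAS-like proteins. For 3 of its 4 members (Oas2, Oas3 and Oasl1) the groups did not overlap, with MI higher. Of these 3, Oas3 was not tested and Oasl1 passed the filter through its MI libraries alone. The 25.0% of all tested genes with such groups is therefore no comparison for that count. Oasl1 was at 1.14, 4.06 and 2.06 FPKM in the infarct libraries and 0.721, 0.501 and 0.186 FPKM in those of uninjured heart. The groups did not overlap, although all values were low, and the log2 difference was 1.14 (SE 0.45, limma adjusted p = 0.274), or 1.00 (SE 0.47, adjusted p = 0.177) without Normal Ms1608. Oas2 was at 1.32, 7.94 and 1.31 FPKM in the infarct libraries and 1.13, 0.639 and 0.0365 FPKM in those of uninjured heart. Its groups also did not overlap, but the gap was narrow: MI Ms1608 at 1.31 against Normal Ms1535 at 1.13 FPKM. The log2 difference was 1.24 (SE 0.61, limma adjusted p = 0.323), or 0.59 (adjusted p = 0.714) without MI Ms1537. Oasl2 was at 3.45, 10.8 and 10.4 FPKM in the infarct libraries and 3.66, 1.48 and 0.999 FPKM in those of uninjured heart. MI Ms1535 was just below Normal Ms1535, the sole overlap, and the log2 difference was 1.57 (SE 0.71, limma adjusted p = 0.305). Oas3, which was not tested, was at 2.26, 0.562 and 1.70 FPKM in the infarct libraries and 0.0106, 0.203 and 0.527 FPKM in those of uninjured heart. The lowest MI value was just above the highest Normal one, and without a filter the fitted difference was 0.96 (limma adjusted p = 0.649). Reads of Oasl1 and of Gm13822, which overlaps it on the opposite strand, cannot be told apart where counting does not use strand, and the strand setting is not given in the sources used here. The same holds for Irf1, Irf7, Ifi35, Usp18 and Gbp2.

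Counted over the tested members, the groups did not overlap, with MI higher, for 4 of 28 (Ddx58, Irf1, Oas2 and Oasl1, 14.3%; 3 without Oasl1), against 25.0% of all tested genes, and with MI lower for 0, against 0.354%. Among all 31 members the count was 7, adding Oas3, Mx2 and Gbp5. These were below the filter, and the 25.0% covers tested genes alone, so it is no comparison for that count. Their values were low and the gaps narrow for Oas3 (0.562 against 0.527 FPKM) and Mx2 (0.726 against 0.606 FPKM). Without Normal Ms1608 the count over tested members was 5 of 28 higher, adding Mx1, against 52.6%, and 2 lower, Isg15 and Rtp4, against 1.75%. The share of members with separated groups was thus below the share of all genes in the higher direction in both comparisons.

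**Figure D2:**
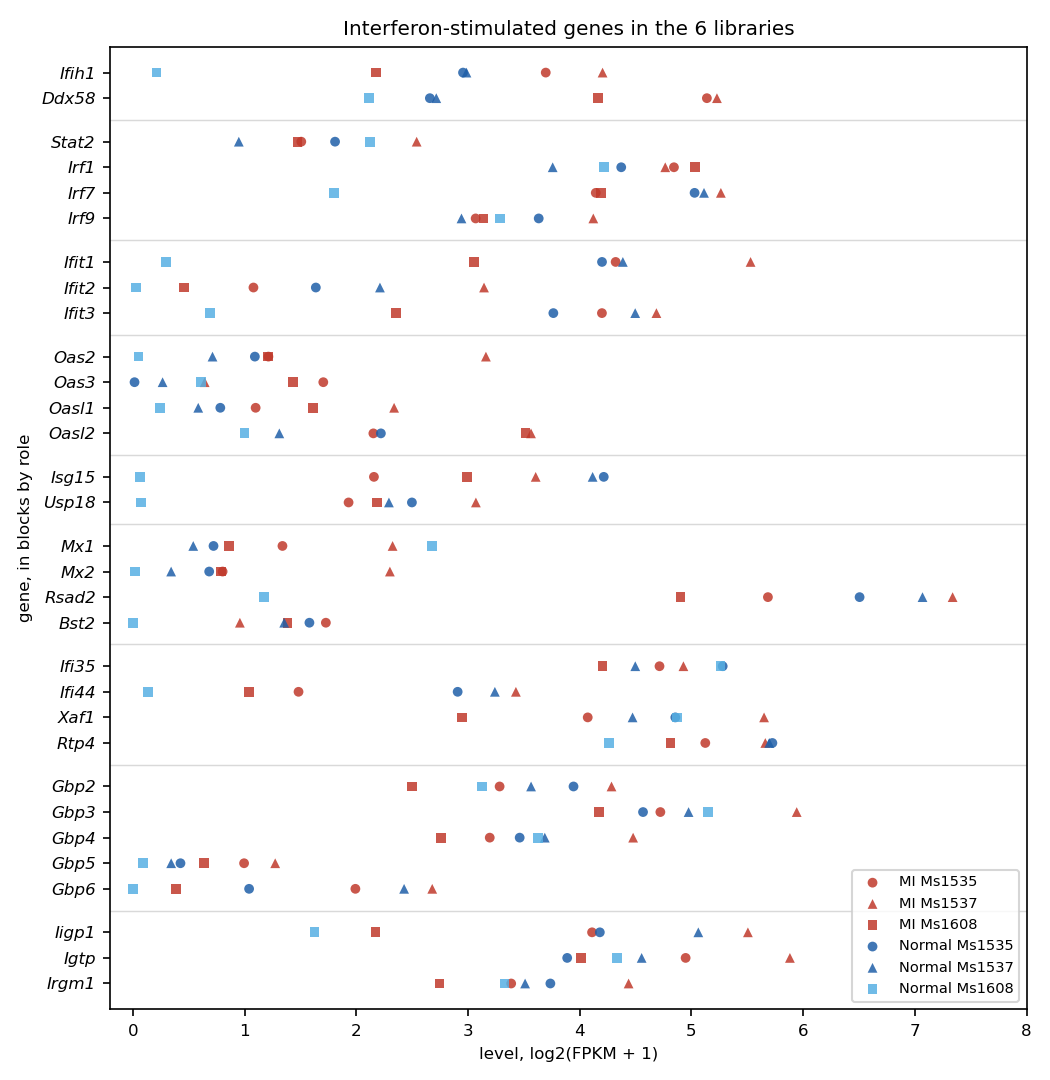
Level of each of the 31 members (x axis, log2(FPKM + 1)) in the 6 libraries, MI in red and Normal in blue, with 1 point per library and members in blocks by role. Ddx58 has all 3 MI points (16.9 to 36.5 FPKM) above all Normal points (3.33 to 5.57 FPKM), while for 19 of 31 members the pale blue square, Normal Ms1608, lies lowest.

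Isg15, a ubiquitin-like protein attached to targets during the interferon response, had its highest levels in uninjured heart. Its level was 3.46, 11.2 and 6.93 FPKM in the infarct libraries and 17.6, 16.3 and 0.0468 FPKM in those of uninjured heart. Normal Ms1535 and Ms1537 were above all MI libraries, and Normal Ms1608 held about 1.23 implied fragments for this gene, under the floor of 3 fragments. With all libraries the log2 difference was 0.12 (SE 1.10, limma adjusted p = 0.967), and without Normal Ms1608 it was -1.25 (SE 0.55, limma adjusted p = 0.158). Usp18, the protease that removes ISG15 and blocks the interferon receptor, was at 2.81, 7.40 and 3.56 FPKM in the infarct libraries and 4.65, 3.90 and 0.0504 FPKM in those of uninjured heart. Its difference was 0.78 with all libraries and 0.00 without Normal Ms1608, and the Normal Ms1608 value stands on 3.09 implied fragments.

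The IFIT proteins bind foreign RNA and block its translation. Ifit1 was at 19.0, 45.2 and 7.32 FPKM in the infarct libraries and 17.4, 19.9 and 0.226 FPKM in those of uninjured heart. Its MI and other Normal libraries overlapped, and Normal Ms1608 was far below all of them. The log2 difference was 1.34 (SE 1.14, limma adjusted p = 0.547) and was 0.01 without Normal Ms1608, so the difference rests on that library. Ifit3 was at 17.4, 24.7 and 4.13 FPKM in the infarct libraries and 12.6, 21.6 and 0.614 FPKM in those of uninjured heart, with a difference of 0.76 (SE 1.07, limma adjusted p = 0.734) that turned to -0.38 without Normal Ms1608. Its level is uncertain, because 31.7% of its 100-base windows are shared with Ifit3b. Ifit2 was also highest in MI Ms1537, at 7.84 FPKM, and lowest in Normal Ms1608, at 0.0219 FPKM or about 2.91 implied fragments.

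Rsad2, which encodes viperin, an antiviral enzyme, had the highest mean level on the list among the antiviral effectors. It was at 50.4, 161 and 28.9 FPKM in the infarct libraries and 89.8, 133 and 1.26 FPKM in those of uninjured heart. MI Ms1537 was the highest and Normal Ms1608 the lowest, and Normal Ms1535 and Ms1537 were above MI Ms1535 and Ms1608. The log2 difference was 1.06 (SE 1.40, limma adjusted p = 0.720) with all libraries and -0.81 (SE 0.68, adjusted p = 0.400) without Normal Ms1608. The Normal Ms1608 value rests on about 183 implied fragments, well above the floor of 3. Bst2, the membrane tether of budding virus, was listed at 0 in Normal Ms1608 and lay between 0.943 and 2.31 FPKM in the others.

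Mx1 and Mx2 encode dynamin-like GTPases that block viral replication, and in C57BL/6 mice both carry inactivating changes. Mx1 was at 1.53, 4.01 and 0.812 FPKM in the infarct libraries and 0.650, 0.455 and 5.39 FPKM in those of uninjured heart. It was the sole member whose highest library was Normal Ms1608, and its difference was 0.19 (SE 0.68, limma adjusted p = 0.901) with all libraries and 0.88 without it. Mx2, not tested, was at 0.745, 3.93 and 0.726 FPKM in the infarct libraries and 0.606, 0.268 and 0.0119 FPKM in those of uninjured heart, so the groups did not overlap.

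Of the other induced genes, Rtp4, a chaperone of membrane receptors, was at 33.9, 49.6 and 27.1 FPKM in the infarct libraries and 51.9, 50.8 and 18.2 FPKM in those of uninjured heart. It shares 11.2% of its windows with Gm45338. Without Normal Ms1608 its groups did not overlap and the difference was -0.51, against -0.03 with it (limma adjusted p = 0.990). Ifi35 was at 25.2, 29.4 and 17.4 FPKM in the infarct libraries and 37.8, 21.6 and 37.3 FPKM in those of uninjured heart, a difference of -0.40 (SE 0.64, limma adjusted p = 0.777). Xaf1, a pro-apoptotic gene, was at 15.8, 49.2 and 6.72 FPKM in the infarct libraries and 28.0, 21.2 and 28.3 FPKM in those of uninjured heart, the lowest difference of the list at -0.51 (SE 0.79, adjusted p = 0.766, limma). Neither was low in Normal Ms1608, and MI Ms1608 was the lowest library for both. Ifi44 was at 1.80, 9.77 and 1.06 FPKM in the infarct libraries and 6.50, 8.45 and 0.0975 FPKM in those of uninjured heart, and its difference was -0.11 with all libraries and -1.09 without Normal Ms1608.

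The guanylate-binding proteins and immunity-related GTPases attack the vacuoles of intracellular pathogens and are induced mostly by type II interferon. Gbp3 was at 25.4, 60.5 and 17.0 FPKM in the infarct libraries and 22.7, 30.4 and 34.4 FPKM in those of uninjured heart. Gbp4 was at 8.15, 21.3 and 5.77 FPKM in the infarct libraries and 10.0, 11.9 and 11.4 FPKM in those of uninjured heart. For both the Normal libraries lay close together and inside the range of the MI libraries, with limma differences of 0.05 (SE 0.70, adjusted p = 0.979) and -0.12 (SE 0.71, adjusted p = 0.945). Gbp2 had a difference of -0.19 and overlapping groups at 4.67 to 18.5 FPKM. Gbp5, not tested, was at 0.994, 1.42 and 0.557 FPKM in the infarct libraries and 0.344, 0.269 and 0.0662 FPKM in those of uninjured heart, with no overlap. Gbp6 was at 0.310 to 5.41 FPKM in 5 libraries and listed at 0 in Normal Ms1608, and 51.3% of its windows are shared with neighbours. Its second row is named Gm43302 in GENCODE and spans Gbp6 and Gbp10, so it was not counted as a member.

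Igtp was at 29.9, 57.9 and 15.1 FPKM in the infarct libraries and 13.8, 22.5 and 19.2 FPKM in those of uninjured heart. Iigp1 was at 16.3, 44.4 and 3.50 FPKM in the infarct libraries and 17.1, 32.4 and 2.09 FPKM in those of uninjured heart. The groups overlapped for both, and the limma differences were 0.69 (SE 0.71, adjusted p = 0.630) and 0.31 (SE 1.09, adjusted p = 0.903). Irgm1, at 5.70 to 20.7 FPKM, had a difference of -0.00. Igtp shares 5.7% of its windows with Irgm2, its neighbour on the same strand. Of these 3, Iigp1 alone was lowest in Normal Ms1608, whereas Igtp and Irgm1 were lowest in Normal Ms1535 and MI Ms1608.

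A single infarct library held the highest level of most members. MI Ms1537 was the highest of all 6 libraries for 22 of 28 tested members (78.6%), against 36.3% of all tested genes, and the highest of the 3 MI libraries for 26 of 28 (92.9%), against 51.8%. Of all 31 members, Irf1, Oas3 and Bst2 were the exceptions within MI. Ranked within each library, the order was another: the median percentile of the tested members among tested genes was 54.3, 70.0 and 52.4 in the infarct libraries and 77.8, 78.8 and 46.9 in those of uninjured heart. By rank, Normal Ms1535 and Ms1537 thus stood above MI Ms1537, and all 3 numbers of the MI group lay between them and Normal Ms1608. The pool ranked leans to MI. Of tested genes 96.2, 95.3 and 93.8% reached 1 FPKM in the infarct libraries and 82.4, 78.7 and 61.9% in those of uninjured heart. A gene of unchanged level can therefore rank higher in Normal. The members of a library share its cells and its preparation, so these counts describe libraries and do not replicate a condition. Without MI Ms1537 the median log2 difference of the members was -0.05, against 0.67 over all tested genes, and 1 (Ddx58) was higher at an unadjusted p under 0.05, against 8.33% of all tested genes.

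Normal Ms1608 was the lowest of all 6 libraries for 17 of 28 tested members (60.7%), against 44.1% of all tested genes. Taking genes at 1 FPKM or more in both other Normal libraries, a measure chosen after these values were seen, Normal Ms1608 was under 10% of the lower of the pair for 11 of 24 members (45.8%), against 26.9% of all such genes. The 11 were Ifih1, Irf7, Ifit1, Ifit2, Ifit3, Isg15, Usp18, Rsad2, Bst2, Ifi44 and Gbp6. Normal Ms1608 was above the higher of the pair for 2 of 24 (Xaf1 and Gbp3, 8.33%), against 44.5%. The 11 included all 3 IFIT genes and both genes of the ISG15 system, but 0 of 3 immunity-related GTPases. Of those GTPases, Iigp1 was near the cutoff, at 2.09 FPKM in Normal Ms1608 against 17.1 and 32.4 FPKM in the pair. Irgm2, Tgtp1 and Tgtp2, immunity-related GTPases that are not members, were under 10%, so the family as a whole was not spared.

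By the same measure, 0 of 4 interferon receptor genes, 0 of 3 genes of the kinase and STAT list and 1 of 10 nucleic acid sensing genes (Tlr3) were under 10% in Normal Ms1608. Ifnar1, a chain of the type I receptor, was at 18.4 FPKM in Normal Ms1608 and at 0.690 to 4.62 FPKM in the others. Of 40 other interferon-induced genes, 13 were under 10%, among them Eif2ak2, Cmpk2 and Irgm2. Of the 9 members with a promoter among the 11 that were under 10%, 6 held the ISRE core, and of 10 with a promoter among the 13 that were not, 5 held it. Of 14 endothelial markers 13 were under 10% (Kdr, a receptor for VEGF, was at 73.9, 44.6 and 0.486 FPKM in the Normal libraries). The other, Pecam1, was highest in Normal Ms1608, at 28.35 FPKM. Also under 10% were 5 of 5 cardiomyocyte, 3 of 3 pericyte and smooth muscle and 4 of 8 fibroblast markers. Of 10 leukocyte markers 0 were. The part of these cell types in the members' fall was not tested.

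**Figure D3:**
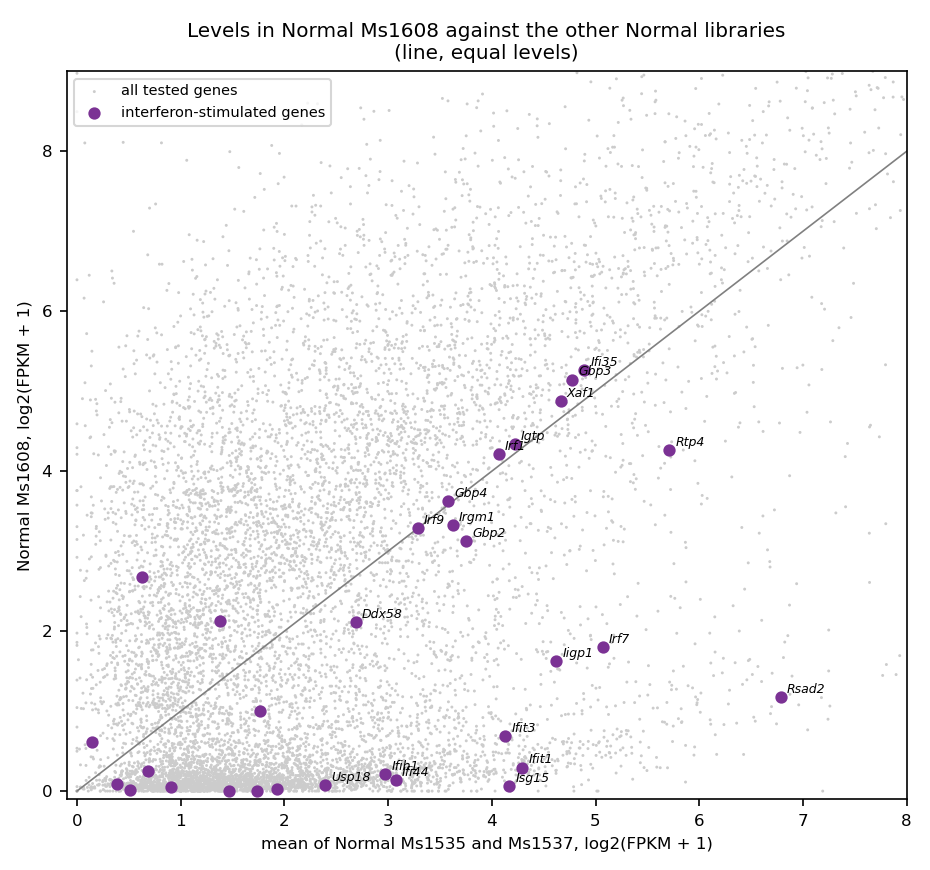
Level in Normal Ms1608 against the mean of the other Normal libraries (log2(FPKM + 1) on both axes) for the members, with all tested genes within the axes as grey points and a line of equal levels. Isg15, Ifit1 and Rsad2 lie far below the line (0.0468, 0.226 and 1.26 FPKM in Normal Ms1608), while Gbp3 (34.4 FPKM) lies above it.

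The interferon ligands themselves were mostly at or near 0. Of 10 ligand genes 1, Ifng, passed the filter, and Ifnb1, Ifna1, Ifna4, Ifna5 and Ifne were listed at 0 in all 6 libraries. Ifng, the type II interferon, was at 5.59, 68.5 and 18.1 FPKM in the infarct libraries and 0.825, 23.3 and 33.2 FPKM in those of uninjured heart, with a difference of 0.84 (SE 1.22, limma adjusted p = 0.745). Its highest library was MI Ms1537, as for most members. Cd3e, a component of the T cell receptor complex, was also highest there, at 69.1 FPKM, against 12.5 and 1.96 FPKM in MI Ms1535 and Ms1608 and 0.968, 3.39 and 15.8 FPKM in Normal. Other genes of that complex were not highest there. Cd3g and Trac were highest in MI Ms1535 (27.4 and 65.7 FPKM), and Cd3d in Normal Ms1608 (122.5 FPKM). Over 12 T and NK cell markers, the sum was 334, 1198 and 897 FPKM in the infarct libraries and 80.3, 338 and 1016 FPKM in those of uninjured heart, with no marker at 0. Of these sums, Gzma alone held 80.3, 844 and 711 FPKM in the infarct libraries and 64.7, 288 and 620 FPKM in the others. The part of T cells in the members' levels was not tested. Markers of plasmacytoid dendritic cells, which make type I interferon, summed to 63.9, 48.1 and 67.1 FPKM over 6 genes in the infarct libraries and 59.6, 51.3 and 44.0 FPKM in those of uninjured heart. Of 5 tested, 1 was higher in MI at an unadjusted limma p under 0.05, as were 16.1% of all tested genes. Tcf4 (15.2 to 44.4 FPKM) and Cox6a2 (0.317 to 44.4 FPKM) made up most of each sum, and Bst2 is itself a member. Within that list Siglech was at 16.7, 1.20 and 3.49 FPKM in the infarct libraries and 0.0311, 0.103 and 1.63 FPKM in those of uninjured heart. Ccr9 was at 3.80, 1.08 and 1.94 FPKM in the infarct libraries and 0.108, 0.0916 and 2.0 FPKM in those of uninjured heart. The part of these cells in the members' levels was not tested.

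Of the receptor genes, 5 of 6 were tested and 0 passed the adjusted threshold in either direction, with 1 higher at an unadjusted p under 0.05 (16.1% of all tested genes were). That was Ifngr2, a chain of the type II receptor, at 17.8, 18.7 and 18.4 FPKM in the infarct libraries and 8.90, 4.53 and 3.23 FPKM in those of uninjured heart. The MI libraries were close together and all above Normal, with a difference of 1.65 (SE 0.67, limma adjusted p = 0.280). Ifngr1, the other chain, overlapped at 27.7 to 54.6 FPKM in MI and 16.7 to 43.7 FPKM in Normal. Of the 5 kinase and STAT genes, Tyk2 had the lowest p, at 2.95, 7.60 and 1.82 FPKM in the infarct libraries and 0.845, 0.967 and 0.0300 FPKM in those of uninjured heart (difference 1.56, limma adjusted p = 0.257).

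Of 6 negative regulators tested, 0 passed the adjusted threshold with all libraries and 3 were higher at an unadjusted p under 0.05, as were 16.1% of all tested genes. Socs1, the feedback inhibitor of JAK kinases, was at 3.20, 3.31 and 1.76 FPKM in the infarct libraries and 0.793, 0.932 and 0.0772 FPKM in those of uninjured heart, with a difference of 1.25 (limma adjusted p = 0.259). Without Normal Ms1608, Socs3 (25.8 to 40.2 FPKM in MI, 3.08 and 4.63 FPKM in the other Normal libraries) and Ptpn6 (37.3 to 62.6 FPKM against 6.01 and 2.16 FPKM) were higher in MI, at limma adjusted p of 0.0256 and 0.0223. Normal Ms1608 itself was at 26.5 FPKM for Socs3 and 45.2 FPKM for Ptpn6, within the MI ranges. Ptpn6 encodes the phosphatase SHP-1 of blood cells, and all 10 pan-leukocyte markers passed the adjusted threshold in the same fit. The part of leukocytes in the Ptpn6 and Socs3 differences was not tested. Of 13 nucleic acid sensing genes, 0 passed with all libraries, and Irf5 (7.42, 7.02 and 9.51 FPKM in MI, 1.12, 0.825 and 5.95 FPKM in Normal) passed without Normal Ms1608 (difference 2.18, limma adjusted p = 0.0417). Of 49 tested other interferon-induced genes, 0 passed with all libraries and 6 were higher at an unadjusted p under 0.05, a share below the 16.1% of all tested genes. Gbp8 and Epsti1, 2 of the 49, passed without Normal Ms1608, where 4.51% of all tested genes did, Gbp8 at a limma adjusted p of 0.0485. Epsti1 was at 133.7 FPKM in Normal Ms1608, the highest of the 6 libraries, against 11.5 to 29.6 FPKM in MI. In each of these lists 0 genes were lower at an unadjusted p under 0.05 with all libraries.

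**Figure D4:**
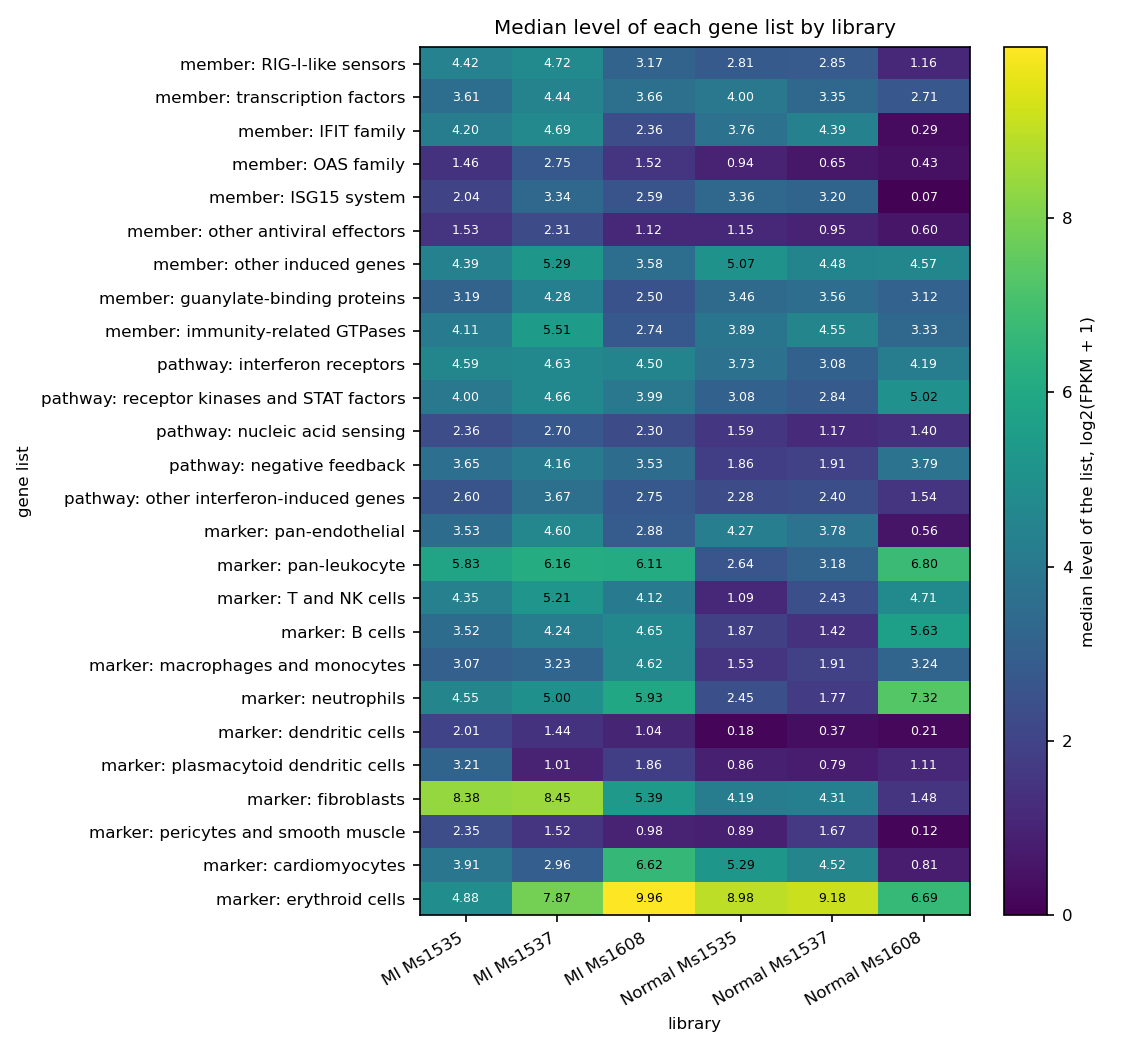
Median level of each gene list (log2(FPKM + 1)) in the 6 libraries, for member role groups, pathway lists and cell type markers. The IFIT and pan-endothelial rows are lowest in Normal Ms1608 (0.29 and 0.56), where the pan-leukocyte row is highest (6.80).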

How the data were processed

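RNA was sequenced from sorted tdTomato+ F4/80- heart cells, in 3 MI and 3 Normal libraries, after cDNA synthesis and T7 amplification per the labels' protocols. The authors deposited FPKM values per gene, and the submitters' processing notes name STAR 2.4.2a, Cufflinks 2.2.1 and the builds GRCm38 and mm10. FPKM are normalized for length and depth and are not counts. Amplification and strand setting can affect levels, and the strand setting is not given in the sources used here. The step size of low FPKM values was used to estimate fragments per library, with 69.0 to 76.7% of low values within 0.1 of a whole number of steps (20% if even). A count of 3 fragments on a 2 kb transcript corresponds to 0.0334 to 0.0476 FPKM, which covers counting error only.

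Differences were fitted on log2(FPKM + 1) using limma 3.58.1 (R 4.3.3; trended prior variance) for genes at 1 FPKM or more in at least 3 libraries, with Benjamini-Hochberg adjustment over all 10168. The procedure was tested on simulated data. The members and lists were chosen with earlier results of these data known. Values in every library are given for members at unadjusted p under 0.05, members whose groups do not overlap, and the highest by mean FPKM in each role group. Others are named where 1 library decides them. From each pathway list, genes with the lowest p and a few key genes are given, and 1 gene of these lists is not reported here. Alternatives were other pseudocounts, filters and scalings, a replicate block, and leaving out libraries. Gene positions and shared windows come from GENCODE M21, promoters from RefSeq, GRCm38.p6. Irf8, Ifit1bl1, Ifit1bl2 and Ifit3b were not analysed here as expression values.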

Additional observations from a re-analysis of the deposited data

How the results depend on the processing

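No member passed the adjusted threshold with all libraries or under 14 of the 16 other settings, and 1, Ddx58, passed without Normal Ms1608 (2.16) and without both Ms1608 libraries (2.50, limma adjusted p = 0.029). In those fits 459 and 1469 of the 10168 tested genes passed. Leaving out 1 library gave 0 to 1 members past the adjusted threshold. The count of members higher at an unadjusted limma p under 0.05 was 2 of 28, against 16.1% of all tested genes. It was 1 of 19 with a mean of at least 5 FPKM, against 10.8%. With median-ratio, quantile and upper-quartile scaling it was 1 of 28, against 3.65%, 2.86% and 4.59%. Leaving out 1 library gave 1 to 4. The count was 1 without MI Ms1537, Normal Ms1537 or Normal Ms1608, against 8.33%, 12.0% and 30.8%. Without MI Ms1535 it was 4 of 28, a share above the 8.43% of all tested genes. The count lower was 0. It was 1 with median-ratio and upper-quartile scaling, against 1.03% and 1.26% of all tested genes. Leaving out 1 library gave 0 to 1 (1 without Normal Ms1608, against 0.738%). The members' median of 0.34 was -0.36, -0.50 and -0.19 with median-ratio, quantile and upper-quartile scaling, where the median of all genes was 0.02, -0.05 and 0.20. Without a filter it was 0.53 over 31 members, 0.49 above all genes. Leaving out 1 library gave -0.07 to 0.75, or -0.90 to 0.02 relative to all genes.

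Changes of sign over all settings were followed only for the tested members that met the rule for printed values. Among the other tested members, Ifit2, Bst2 and Gbp6 changed sign without Normal Ms1608. Their differences went from 0.27, 0.38 and 0.53 to -0.37, -0.11 and -0.05. Of the members followed, the differences below changed sign. With median-ratio scaling, the difference was -0.96 for Gbp3, -0.10 for Ifit3, -0.31 for Igtp, -0.63 for Iigp1, -0.23 for Irf1, -0.40 for Irf7, -0.61 for Isg15 and -0.44 for Mx1. With quantile scaling, the difference was -0.54 for Gbp3, -0.47 for Ifit3, -0.78 for Iigp1, -0.44 for Irf7, -1.04 for Isg15 and -0.57 for Mx1. With upper-quartile scaling, the difference was -0.68 for Gbp3, -0.01 for Ifit3, -0.03 for Igtp, -0.45 for Iigp1, -0.20 for Irf7, -0.65 for Isg15 and -0.17 for Mx1. With both Ms1608 libraries left out, the difference was 0.26 for Gbp4, -0.37 for Irf7, -1.28 for Isg15 and -0.28 for Rsad2. With a pseudocount of 5 FPKM, the difference was -0.19 for Isg15. Leaving out 1 library at a time gave ranges that crossed 0: -0.45 to 0.44 for Gbp3, -0.62 to 0.24 for Gbp4, -0.38 to 1.52 for Ifit3, -0.69 to 1.19 for Iigp1, -0.54 to 1.12 for Irf7, -1.25 to 0.83 for Isg15, -0.21 to 0.88 for Mx1, -0.81 to 2.13 for Rsad2 and -0.51 to 0.22 for Rtp4. The cause of these changes was not tested. Of the members followed, Ddx58, Ifit1, Oas2, Oasl1, Oasl2 and Ifi35 kept their sign under every setting that gave a value. Some of these came close to 0. Ifit1 was at 0.01 without Normal Ms1608, Oasl1 at 0.11 with quantile scaling, and Ifi35 at -0.07 without both Ms1608 libraries.

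The replicate block used the shared Ms numbers. Same-numbered libraries had correlations of -0.052, 0.098 and 0.087 of their deviations from the group means, so the numbers do not show a pairing and not every library correlated best with its own number. With the replicate block, 0 members passed the adjusted threshold, 3 were higher at an unadjusted p under 0.05 (17.9% of all tested genes were) and 0 were lower, and 1 gene of the whole table passed. Values near the floor of 3 fragments, such as Isg15 and Mx2 in Normal Ms1608 (1.23 and 1.02 implied fragments), cannot give a ratio at this depth.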
